A study of Mus musculus with 47 samples.

Results

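Sterol and bile acid transport was followed here through 10 genes: Npc1l1, Abcg5, Abcg8, Abca1, Slc10a2, Fabp6, Slc51a, Slc51b, Nr1h4 and Fgf15. Members were the probe sets of the array whose single gene symbol, after older symbols were updated through the gene ID, is one of these names. The rule found all 10 genes, of 18193 gene symbols on the array, through 12 of 45101 probe sets, with 3 for Abca1 and 1 for each other gene. The rule used no measured value, but the members were chosen with earlier results of these data known. Messenger RNA had been measured on 47 arrays of small intestinal crypts and villi from C57BL/6 mice, in 12 groups of tissue by genotype or diet. In a genetic arm, p21-/-, Apc1638N/+ and wild type mice aged 3 months had eaten Ain76A, a purified control diet. A diet arm held wild type mice labelled as 1 year old, fed NWD1, NWD2 or Ain76A since weaning. Each group held 4 arrays, except NWD2 villi with 3. p21-/- mice lack Cdkn1a, an inhibitor of cyclin-dependent kinases, and Apc1638N/+ mice carry 1 mutant copy of the tumour suppressor Apc, both in every cell of the body. NWD1 is a Western-style purified diet rich in fat and poor in calcium and vitamin D, and NWD2 is the same diet with added calcium and vitamin D. The labels do not say whether the arrays of a group came from separate animals or from pools, so p-values measure the spread between these samples. They also do not say which stretch of the small intestine was taken.

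Enterocytes take cholesterol up from the lumen through Npc1l1 and pump plant sterols and part of the cholesterol back through Abcg5 and Abcg8, which work as a dimer. Abca1 loads cholesterol onto apolipoprotein A-I at the opposite face of the cell. Bile acids are reclaimed mainly in the ileum, where Slc10a2 brings them in, Fabp6 carries them through the cytosol and the paired subunits Slc51a and Slc51b export them towards the blood. Nr1h4 encodes the bile acid receptor FXR, which drives Fgf15, a hormone that restrains bile acid synthesis in the liver, and the oxysterol receptors LXR drive Abcg5, Abcg8 and Abca1.

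On GRCm38.p6, the RefSeq assembly used for positions, Npc1l1 lies at chr11:6211011-6230245, Abcg5 at chr17:84658174-84683011, Abcg8 at chr17:84676302-84700333 and Abca1 at chr4:53030789-53159988. Slc10a2 lies at chr8:5083219-5105287, Fabp6 at chr11:43596040-43601562, Slc51a at chr16:32475578-32487879 and Slc51b at chr9:65412753-65422773. Nr1h4 lies at chr10:89454234-89533645 and Fgf15 at chr7:144896532-144900953. Promoter sequences from RefSeq (GRCm38.p6) were found for 9 of the 10 genes, with 2 windows for Abcg8. The following sequences are shown because Abcg5 and Abcg8 lie head to head on chromosome 17 and were measured together, because Fabp6 had the widest range of levels, and because Slc51a and Slc51b encode partners. The first is the whole stretch of 109 bases between the annotated start of Abcg5, at 84683011 on the minus strand, and the nearer of the 2 annotated starts of Abcg8, at 84683121 on the plus strand. The other start of Abcg8, at 84676302, lies within Abcg5. The others are the 250 bases before the annotated start, read on the strand of the gene. Capitals mark AGGTCA, the core motif of many nuclear receptors, on either strand.
Abcg5 and Abcg8, chr17:84683012-84683120, plus strand: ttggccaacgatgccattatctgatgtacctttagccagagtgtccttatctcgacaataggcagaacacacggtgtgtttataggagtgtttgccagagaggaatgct
Fabp6, chr11:43601563-43601812, minus strand: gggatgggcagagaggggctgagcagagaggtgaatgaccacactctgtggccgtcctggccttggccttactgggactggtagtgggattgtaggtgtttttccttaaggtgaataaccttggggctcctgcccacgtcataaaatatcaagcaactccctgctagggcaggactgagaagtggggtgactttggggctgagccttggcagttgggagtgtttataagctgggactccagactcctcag
Slc51a, chr16:32487880-32488129, minus strand: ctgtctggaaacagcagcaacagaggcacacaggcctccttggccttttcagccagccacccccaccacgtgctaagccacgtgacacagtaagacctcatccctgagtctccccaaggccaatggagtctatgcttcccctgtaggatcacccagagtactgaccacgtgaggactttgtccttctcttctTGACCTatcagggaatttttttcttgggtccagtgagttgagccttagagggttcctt
Slc51b, chr9:65422774-65423023, minus strand: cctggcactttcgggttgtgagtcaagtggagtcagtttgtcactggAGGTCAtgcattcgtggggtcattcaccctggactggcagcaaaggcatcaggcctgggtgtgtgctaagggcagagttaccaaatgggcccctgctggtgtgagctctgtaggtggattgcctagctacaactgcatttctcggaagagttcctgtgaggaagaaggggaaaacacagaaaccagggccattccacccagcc

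The core motif AGGTCA was looked for on both strands of windows of 300 bases, 250 before and 50 after the start. It was present in 4 of the 10 member windows (40%), those of Npc1l1, Nr1h4, Slc51a and Slc51b, and in 16.3% of 32851 mouse windows. In Slc51a it lay at -58 to -53 from the start on the opposite strand, and in Slc51b at -203 to -198 on the same strand. The inverted repeat of the motif with a spacer of 1 base (IR-1, the FXR type) was in 0 of 10 member windows and 0.00913% of all windows. The direct repeat with a spacer of 4 bases (DR-4, the LXR type) was in 0 of 10 and 0.0152%, the LRH-1 type TCAAGGTCA in 0 of 10 and 0.423%, and the HNF4 type TGGACTTTG in 0 of 10 and 0.475%. The FXR, LXR and LRH-1 types contain the core motif, so their matches overlap with it. Only exact copies of the letters were counted, with no mismatch allowed, so repeats with a changed base were missed. At such low rates over all windows, 0 of 10 was the likely count for the IR-1, DR-4, LRH-1 and HNF4 types. Those counts therefore do not show that the member windows lack such elements. A match describes the letters in the window and is not a bound site.

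The deposited log2 values were blank for 55.2% of all cells, and 14758 to 23296 probe sets had a value per array. Levels below are log2 values after quantile normalization, means are given ± SD, and differences are log2 differences ± SE. A difference was called at an adjusted p under 0.05 (limma, 1 fit over all 12 groups, Benjamini-Hochberg over all probe sets tested in that comparison). It was tested only where both groups had at least 3 values, or at least 2 in fits with arrays left out. A probe set of Cdkn1a (1421679_a_at) was blank on all 8 p21-/- arrays and stood at 8.61 to 11.5 on the 8 wild type arrays of 3 months. A second one (1424638_at) stood at 11.2 to 13.4 on p21-/- arrays and 11.4 to 13.0 on wild type arrays, and where either lies relative to the deleted part of the gene is not stated in the labels. The leading Apc probe set stood at 10.24 to 11.02 on Apc1638N/+ arrays and 10.04 to 11.31 on wild type arrays of 3 months. A crypt-villus score was computed per array as the mean log2 level of 6 crypt markers less that of 7 villus enterocyte markers, each marker centred over the arrays. It ran from -5.03 to -0.63 on villus arrays and from 0.83 to 4.36 on crypt arrays, so the tissues did not overlap. Wild type crypt arrays 2 and 4 lay closest to the villi in their group, at 1.94 and 1.92 beside 3.92 and 2.97. Fits without these 2 arrays, chosen after seeing the data, kept wild type crypt arrays 1 and 3 alone. Lgr5 and Ascl2, markers of crypt base stem cells, were blank in p21-/-, wild type and 1-year Ain76A villi, while markers of lymphocytes were measured in both tissues. No crypt marker was blank on all arrays of NWD1 or NWD2 villi. The summed level of Paneth cell markers, cells of the crypt base, was 14.7 to 16.8 log2 units in NWD1 villi. It was 12.1 to 14.3 in 1-year Ain76A villi, and 2 of 4 Paneth markers tested were called higher in NWD1 than in Ain76A villi.

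All 12 member probe sets had a value on at least 1 array, and 10 passed the filter on low values. Abcg5, Npc1l1, Slc51a, Slc51b, Nr1h4 and Abca1 (1421840_at) had a value on all 47 arrays and Abcg8 on 46. Fabp6 had one on 37, and the other Abca1 probe sets on 32 (1421839_at) and 26 (1450392_at). Fgf15 (12 arrays) and Slc10a2 (8 arrays) did not pass the filter, so they are described without a test.

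The first question was where along the crypt-villus axis each gene is expressed. Of 8 member probe sets tested, 4 were higher and 2 lower in p21-/- villi than in p21-/- crypts, where 45.5% of all probe sets tested were called in either direction. In Apc1638N/+ mice 3 of 8 were higher and 2 lower in villi (background 42.2%), and in wild type mice of 3 months 3 of 8 were higher and 2 lower (48.3%). In NWD1 mice 9 of 10 probe sets, of 7 genes, were higher and 0 lower (46.9%). In Ain76A mice of 1 year 7 of 8 probe sets, of 6 genes, were higher and 0 lower (56.8%). In NWD2 mice 2 of 9 were higher and 0 lower (15.6%). The median log2 difference of the members tested was 1.24, 0.81 and 0.18 in p21-/-, Apc1638N/+ and wild type mice, and 1.80, 1.01 and 2.19 in NWD1, NWD2 and Ain76A mice, against 0.01 to 0.14 over all probe sets tested. In NWD2 mice, 8 of 9 were called (7 higher, 1 lower) with the replicate number as a block, where calls over all probe sets also grew, to 2597 higher and 2138 lower. That fit is given because same-numbered villus and crypt arrays deviated together in NWD2 and 1-year Ain76A mice. The pairing is uncertain, since NWD2 villus array 2 correlated best with crypt array 3.

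**Figure D1:**
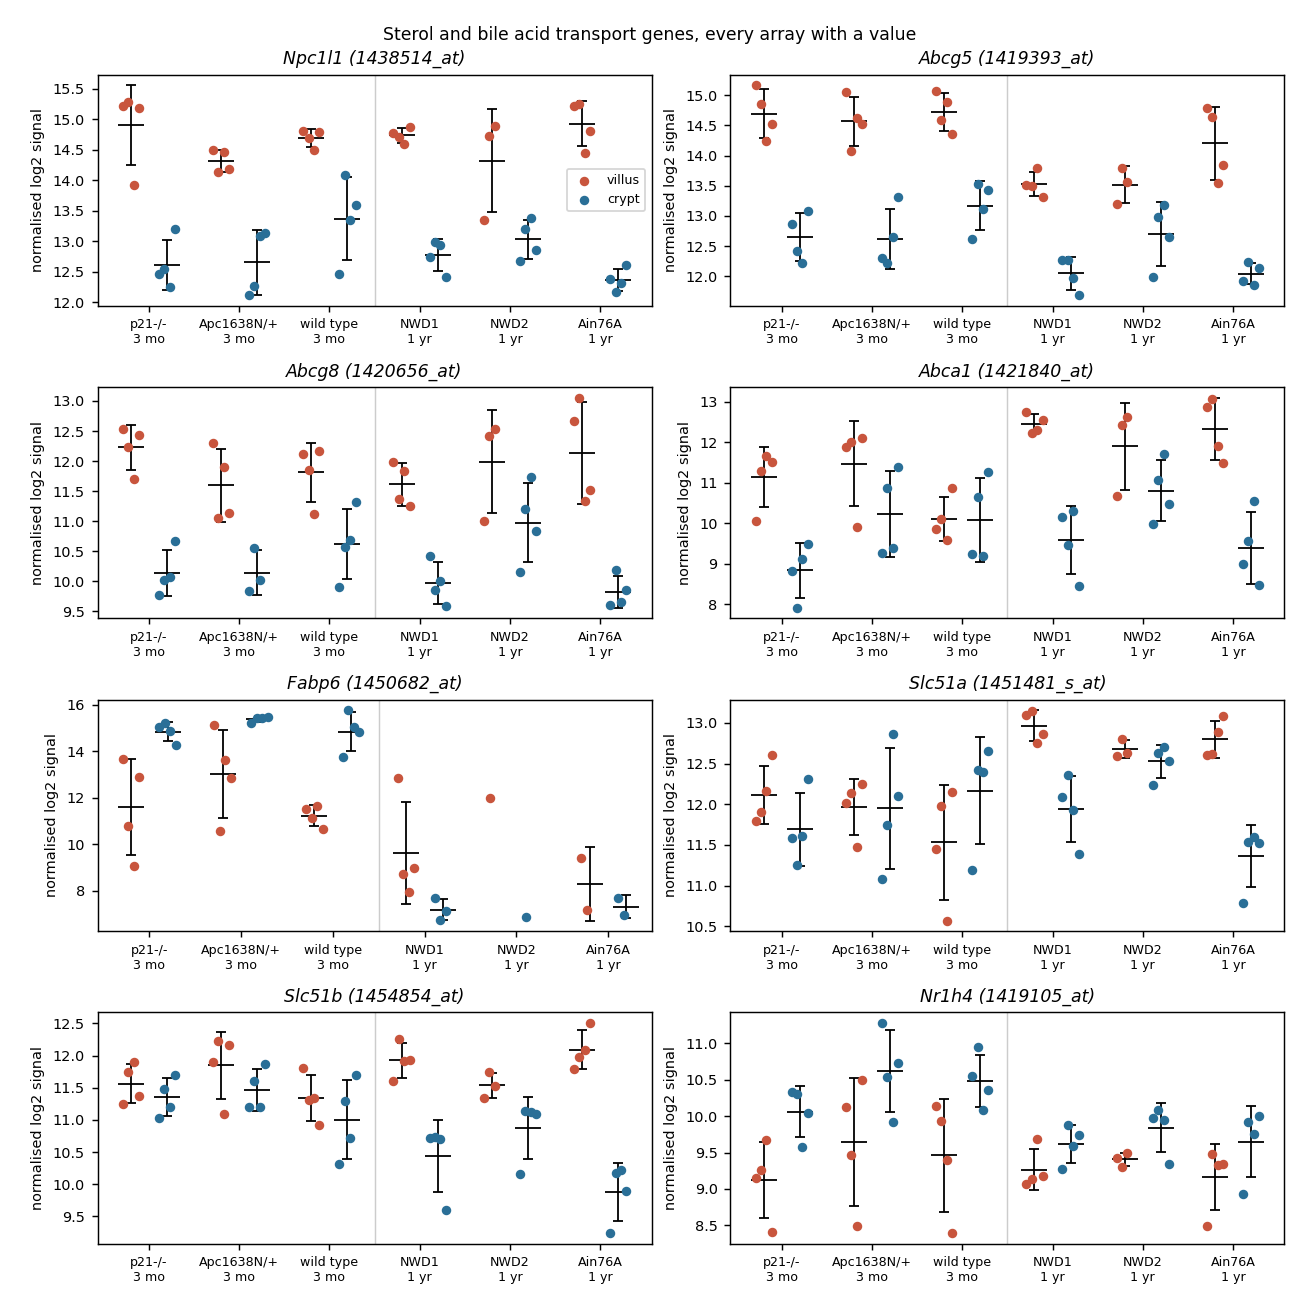
Normalised log2 signal of the 8 members that passed the filter (1 probe set per gene) on every array with a value, by genotype or diet, with villus arrays left of crypt arrays. Bars show the mean and SD; Npc1l1 and Abcg5 separated the tissues in every condition except NWD2 for Npc1l1, while Fabp6 lay at 13.76 or higher on every 3-month crypt array and at 7.68 or lower on every 1-year crypt array with a value.

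Npc1l1, the intestinal cholesterol importer, was higher in villi in all 6 conditions. In 1-year Ain76A mice its level was 15.21, 15.24, 14.45 and 14.81 in villi, against 12.38, 12.16, 12.31 and 12.60 in crypts, a difference of 2.56 ± 0.30 (adjusted p = 3.27e-09). In wild type mice of 3 months it was 14.80, 14.69, 14.48 and 14.79 in villi, against 12.46, 14.08, 13.34 and 13.60 in crypts (1.32 ± 0.30, adjusted p = 0.00037). The villus arrays lay above all crypt arrays in both conditions, with the wild type crypts spread widely. Differences in p21-/-, Apc1638N/+, NWD1 and NWD2 mice were 2.29, 1.66, 1.96 and 1.29. In NWD2 mice the groups overlapped, since villus array 1 stood at 13.34 and crypt array 3 at 13.38, and the call was lost without villus array 2 or 3 (highest adjusted p 0.109). The villus means of Npc1l1 ran from 14.31 in Apc1638N/+ to 14.93 in Ain76A mice, and no neighbours in that order were further apart than the larger of their SDs.

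Abcg5 and Abcg8, the sterol efflux pair, were higher in villi in 5 of the 6 conditions. Abcg5 had 15.17, 14.86, 14.24 and 14.52 in p21-/- villi, against 12.87, 12.42, 12.22 and 13.08 in p21-/- crypts (2.05 ± 0.27, adjusted p = 1.50e-07). The groups of Abcg5 did not overlap in any of the 6 conditions. Its differences were 1.94 in Apc1638N/+, 1.55 in wild type, 1.49 in NWD1 and 2.16 in Ain76A mice, all called, and 0.82 ± 0.29 in NWD2 mice, just outside the call (adjusted p = 0.0501; 0.0246 with the replicate block). Abcg8 differed by 2.09 ± 0.36 in p21-/-, 1.45 in Apc1638N/+, 1.19 in wild type, 1.64 in NWD1 and 2.32 ± 0.36 in Ain76A mice, all called. The wild type groups of Abcg8 overlapped, and that call was lost with array weights (1.05, adjusted p = 0.0575). In NWD2 mice its difference was 1.01 ± 0.39 (adjusted p = 0.0700; 0.00845 with the block). Both NWD2 differences were called without villus array 1 (adjusted p = 0.0279 for Abcg5 and 0.00793 for Abcg8). Among villi, the means of Abcg5 were 13.53 in NWD1 and 13.52 in NWD2 mice, and 14.20 to 14.72 in Ain76A mice and the 3-month groups. NWD1 and NWD2 villi overlapped with Ain76A villi, and neither difference was called (-0.67, adjusted p = 0.846, and -0.68, adjusted p = 0.326; with array weights -0.68, 0.0273, and -0.52, 0.0423). For Abcg8 the villus means ran from 11.60 to 12.23.

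Abca1, the exporter to apolipoprotein A-I, was called higher in villi in 3 of the 6 conditions. In 1-year Ain76A mice its leading probe set stood at 12.87, 13.07, 11.90 and 11.48 in villi, against 8.99, 9.55, 10.54 and 8.47 in crypts (2.94 ± 0.55, adjusted p = 1.89e-05). In NWD1 mice it differed by 2.86 ± 0.55 and in p21-/- mice by 2.30 ± 0.55, both called. In wild type mice of 3 months it stood at 9.86, 10.10, 9.59 and 10.86 in villi, against 9.24, 10.64, 9.19 and 11.26 in crypts, and the difference was 0.02 (95% interval -1.09 to 1.13). These wild type groups overlapped fully, and crypt arrays 2 and 4 were the high ones. Without those 2 arrays the difference was 0.89 (adjusted p = 0.259). In Apc1638N/+ and NWD2 mice the differences of 1.24 and 1.10 were not called (adjusted p = 0.0659 and 0.202; 0.0108 in NWD2 mice with the block). The Apc1638N/+ difference was called without villus array 3 or crypt array 2 or 4 (lowest adjusted p 0.0109) and with array weights (0.0428), and the NWD2 difference without villus array 1 (0.0489). The other Abca1 probe sets could be tested at 1 year only: 1421839_at was higher in villi by 2.53 in NWD1, 1.27 in NWD2 and 1.89 in Ain76A mice, and 1450392_at by 2.38 in NWD1 mice. In NWD2 mice 1450392_at differed by 1.33, which was not called (adjusted p = 0.0673; 0.0115 with the replicate block and 0.0412 with blanks set to a floor). The NWD2 call of 1421839_at (adjusted p = 0.0420) was lost without any 1 of 5 of the 7 arrays, with a highest adjusted p of 0.301. At 3 months 1421839_at was blank on 10 of 12 crypt arrays and 4 of 12 villus arrays.

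Fabp6, the cytosolic bile acid carrier of the ileum, ran the other way at 3 months and was the most variable member. It stood at 11.54, 11.12, 11.64 and 10.66 in wild type villi, against 13.76, 15.76, 15.05 and 14.84 in wild type crypts, lower in villi (-3.61 ± 0.85, adjusted p = 0.000827). All wild type crypt arrays exceeded all villus arrays. In p21-/- mice it had 13.66, 10.81, 9.09 and 12.90 in villi, against 15.03, 15.22, 14.87 and 14.29 in crypts (-3.24 ± 0.85, adjusted p = 0.00244). In Apc1638N/+ mice it had 15.14, 10.59, 13.61 and 12.83 in villi, against 15.23, 15.41, 15.42 and 15.50 in crypts (-2.35 ± 0.85, adjusted p = 0.0260). That last call was lost without villus array 2 or 4 (highest adjusted p 0.153) and with array weights (0.0941). Crypt levels at 3 months were high, at 13.76 or above. The SD was 2.07 in villi and 0.40 in crypts of p21-/- mice, 1.89 in villi and 0.11 in crypts of Apc1638N/+ mice, and 0.45 in villi and 0.83 in crypts of wild type mice.

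At 1 year Fabp6 had a value on 13 of 23 arrays. In NWD1 mice it stood at 12.86, 8.74, 7.94 and 8.98 in villi, against 7.68, 6.76 and 7.14 on the crypt arrays with a value, so it was higher in villi by 2.44 ± 0.92 (adjusted p = 0.0293). The call was lost without villus array 1 and without crypt array 2 or 4 (highest adjusted p 0.187). In NWD2 mice 1 villus array had 12.01 and 1 crypt array 6.88, and in Ain76A mice the values were 9.42 and 7.19 in villi and 7.68 and 6.97 in crypts. Whether the axis of Fabp6 differed between NWD1 mice and the 3-month groups was not tested, and Ain76A mice had too few values for a test. With each blank set to a floor, the 5th percentile of measured values of its array, the axis of Fabp6 in 1-year Ain76A mice less that in 3-month wild type mice was 4.11 ± 1.33 (adjusted p = 0.0451). At that floor its villus-over-crypt difference was 0.50 in Ain76A mice (adjusted p = 0.680) and -3.61 in wild type mice. As 2 of 4 Ain76A arrays of each tissue were blank, the size depends on the floor.

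Slc51a and Slc51b, the partners of the basolateral bile acid exporter, were higher in villi at 1 year in NWD1 and Ain76A mice. In Ain76A mice Slc51b stood at 11.79, 11.98, 12.09 and 12.51 in villi, against 9.24, 10.18, 10.22 and 9.90 in crypts (2.21 ± 0.29, adjusted p = 2.84e-08). Slc51a stood at 12.60, 12.62, 12.88 and 13.08 in villi there, against 10.79, 11.54, 11.60 and 11.53 in crypts (1.43 ± 0.31, adjusted p = 0.000131). Neither partner overlapped between the tissues in these mice. In NWD1 mice Slc51b differed by 1.49 ± 0.29 and Slc51a by 1.02 ± 0.31, both called. In the 3-month mice neither was called: Slc51a differed by 0.42 in p21-/-, 0.02 in Apc1638N/+ and -0.63 in wild type mice, and Slc51b by 0.21, 0.38 and 0.34, with all groups overlapping. In wild type mice Slc51a was called lower in villi without crypt array 1 (-0.96, adjusted p = 0.0113), without villus array 4 (-0.84, 0.0316) and with array weights (-0.83, 0.0415), and was -0.26 (0.576) without crypt arrays 2 and 4. Slc51b was 0.83 (adjusted p = 0.0349) there without crypt arrays 2 and 4, a setting chosen after seeing the data that keeps crypt arrays 1 and 3 alone. The Slc51a probe set carries the suffix _s_at, which in this array family marks probes that may match more than one transcript.

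Nr1h4, the bile acid receptor, was lower in villi than in crypts at 3 months, by 0.94 in p21-/-, 0.98 in Apc1638N/+ and 1.02 in wild type mice (each SE 0.34, adjusted p = 0.0219, 0.0193 and 0.0123). In wild type mice it stood at 10.14, 9.93, 9.39 and 8.39 in villi, against 10.55, 10.94, 10.08 and 10.36 in crypts. The groups overlapped in all 3 genotypes, and each call was lost without at least 1 array (p21-/- crypt array 1 or 2 or villus array 4, Apc1638N/+ crypt array 1 or villus array 3, wild type villus array 4; highest adjusted p 0.158). The wild type call was also lost without crypt arrays 2 and 4 (adjusted p = 0.0920) and with array weights (0.161), the Apc1638N/+ call with array weights (0.0798) and in a fit of only the groups compared (0.121), and the p21-/- call on the deposited scaling (0.0519). At 1 year the differences were -0.36 in NWD1, -0.44 in NWD2 and -0.49 in Ain76A mice and were not called, but with the replicate block Nr1h4 was lower in NWD2 villi (-0.60, adjusted p = 0.0194) and in Ain76A villi (-0.49, adjusted p = 0.00869). Fgf15, its target, had a value on all 4 wild type crypt arrays of 3 months, at 7.74, 9.38, 8.60 and 7.67, and on 0 of 4 wild type villus arrays. It had a value on 2 villus and 2 crypt arrays of p21-/- mice, on 2 villus and 1 crypt array of Apc1638N/+ mice, and on 1 of 23 arrays at 1 year. Slc10a2, the importer, had a value on 6 of 23 villus and 2 of 24 crypt arrays, between 5.68 and 7.05, so no difference along the axis could be measured.

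**Figure D2:**
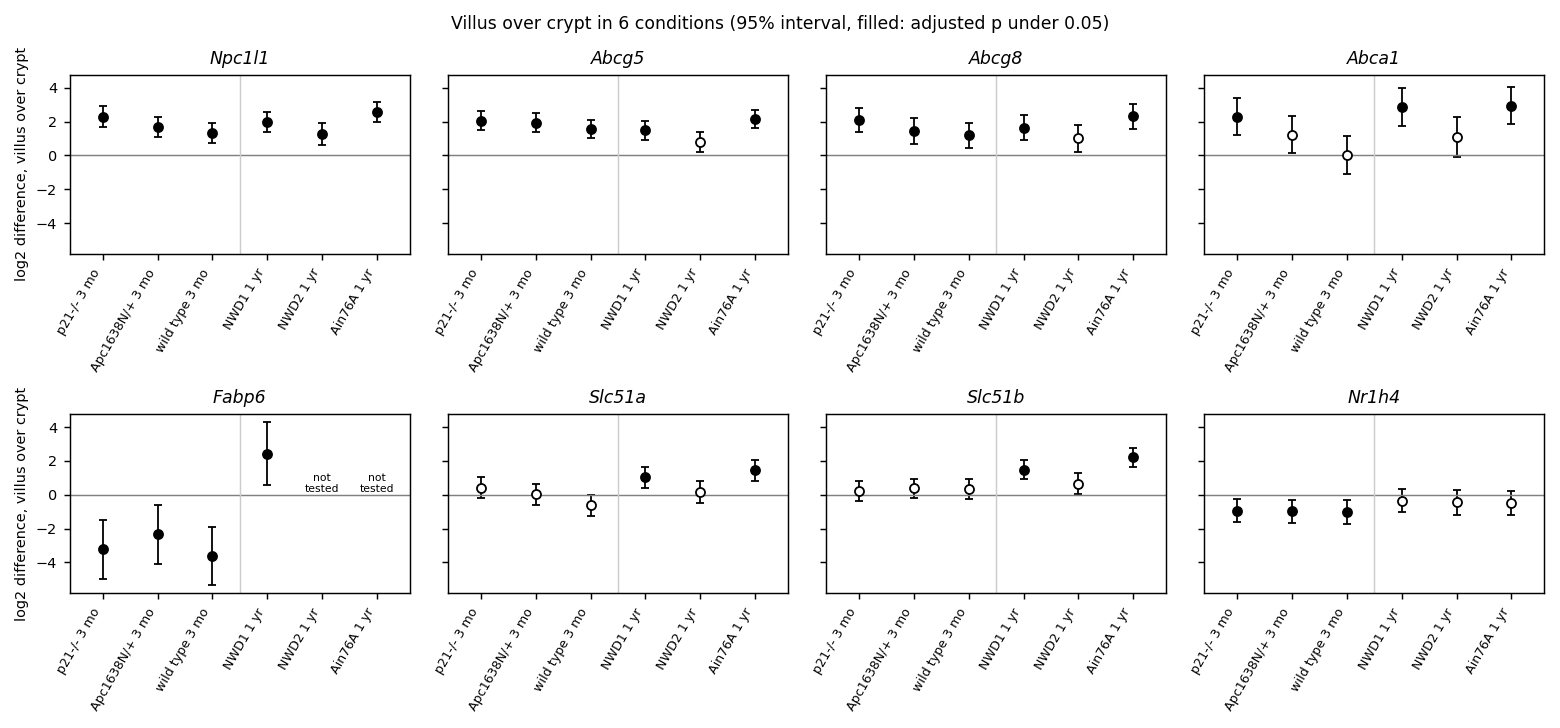
Log2 difference of villus over crypt for the 8 members in 6 conditions, with 95% intervals; filled points had an adjusted p under 0.05, and Fabp6 was not tested in NWD2 and 1-year Ain76A mice. All points of Npc1l1, Abcg5, Abcg8 and Abca1 lay above 0 (0.02 for Abca1 in wild type mice), those of Nr1h4 lay below 0, and Slc51a and Slc51b were called in NWD1 and 1-year Ain76A mice.

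The second question was whether the genetic risk factors change these genes within a tissue. At an adjusted p under 0.05 (limma), 0 of 8 members were called for p21-/- over wild type in crypts (background 4.25%) and in villi (0.0390%), and 0 of 8 for Apc1638N/+ over wild type in crypts (0.0957%) and in villi (0%). At an unadjusted p under 0.05 the counts were 2, 0, 2 and 2. The largest differences in crypts were those of Abca1 in p21-/- mice, at 8.83, 7.91, 9.12 and 9.48 against 9.24, 10.64, 9.19 and 11.26 in wild type (-1.25, 95% interval -2.36 to -0.14, adjusted p = 0.189). Without wild type crypt arrays 2 and 4, the high ones, it was -0.38 (adjusted p = 0.794). Npc1l1 was called lower in p21-/- crypts without wild type crypt array 1 (-1.07, adjusted p = 0.0389). In villi they were those of Fabp6 and Abca1 in Apc1638N/+ mice, at 1.80 (0.07 to 3.53, adjusted p = 0.948) and 1.37 (0.26 to 2.48, adjusted p = 0.926). All these groups overlapped. Intervals this wide leave room for differences of more than 1 log2 unit.

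The third question was whether the diets do. For NWD1 over Ain76A, 0 of 8 members were called in crypts (background 0%) and 0 of 9 in villi (0.0647%), with 0 and 1 at an unadjusted p under 0.05. For NWD2 over Ain76A, 3 of 8 were higher in crypts (background 8.83%, with 5.59% higher) and 0 of 9 were called in villi (0.228%, with 1 at an unadjusted p under 0.05). In crypts, Slc51a stood at 12.24, 12.62, 12.71 and 12.53 on NWD2, against 10.79, 11.54, 11.60 and 11.53 on Ain76A (1.16 ± 0.31, adjusted p = 0.0142). Every NWD2 crypt array exceeded every Ain76A crypt array for this gene. Slc51b stood at 10.16, 11.14, 11.12 and 11.09 on NWD2, against 9.24, 10.18, 10.22 and 9.90 on Ain76A (0.99 ± 0.29, adjusted p = 0.0238). Abcg8 stood at 10.15, 11.20, 11.73 and 10.83 on NWD2, against 9.60, 10.18, 9.66 and 9.85 on Ain76A (1.16 ± 0.36, adjusted p = 0.0380). For the last 2 genes NWD2 array 1 lay among the Ain76A arrays.

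The NWD2 crypts were also closer to villi in their markers. Their crypt-villus score was 0.83 to 2.57, against 2.92 to 4.36 in Ain76A crypts, and the summed level of villus enterocyte markers (7 of 8 with a probe set, none blank on all arrays) was 16.3 to 17.5 log2 units, against 15.5 to 16.2. After adjustment for that score, 0 of 8 members were called: Slc51a differed by 0.94 (adjusted p = 0.206), Slc51b by 0.59 (0.399) and Abcg8 by 0.45 (0.594). Over all 13844 probe sets tested, calls fell as well with the score, from 774 higher and 448 lower to 30 and 11. The loss of the member calls was thus shared by most called probe sets. The scores of the 2 groups did not overlap, so this fit cannot separate the diet from the score. The part of the villus markers in the differences of these 3 genes was thus not tested. In bulk tissue, fewer cells of a type and less RNA per cell cannot be told apart. The 3 calls were also lost without Ain76A crypt array 1, NWD2 crypt array 2 or NWD2 crypt array 3, each of which left 0 members called. The call of Abcg8 was lost with blanks set to a floor as well (1.16, adjusted p = 0.111). Npc1l1, Abcg5 and Abca1, at 0.66, 0.66 and 1.41 (adjusted p = 0.151, 0.117 and 0.0961), were called in a fit of only the groups compared (adjusted p = 0.0160, 0.0487 and 0.0358), where 1629 probe sets were called higher and 2211 lower, against 774 and 448.

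**Figure D3:**
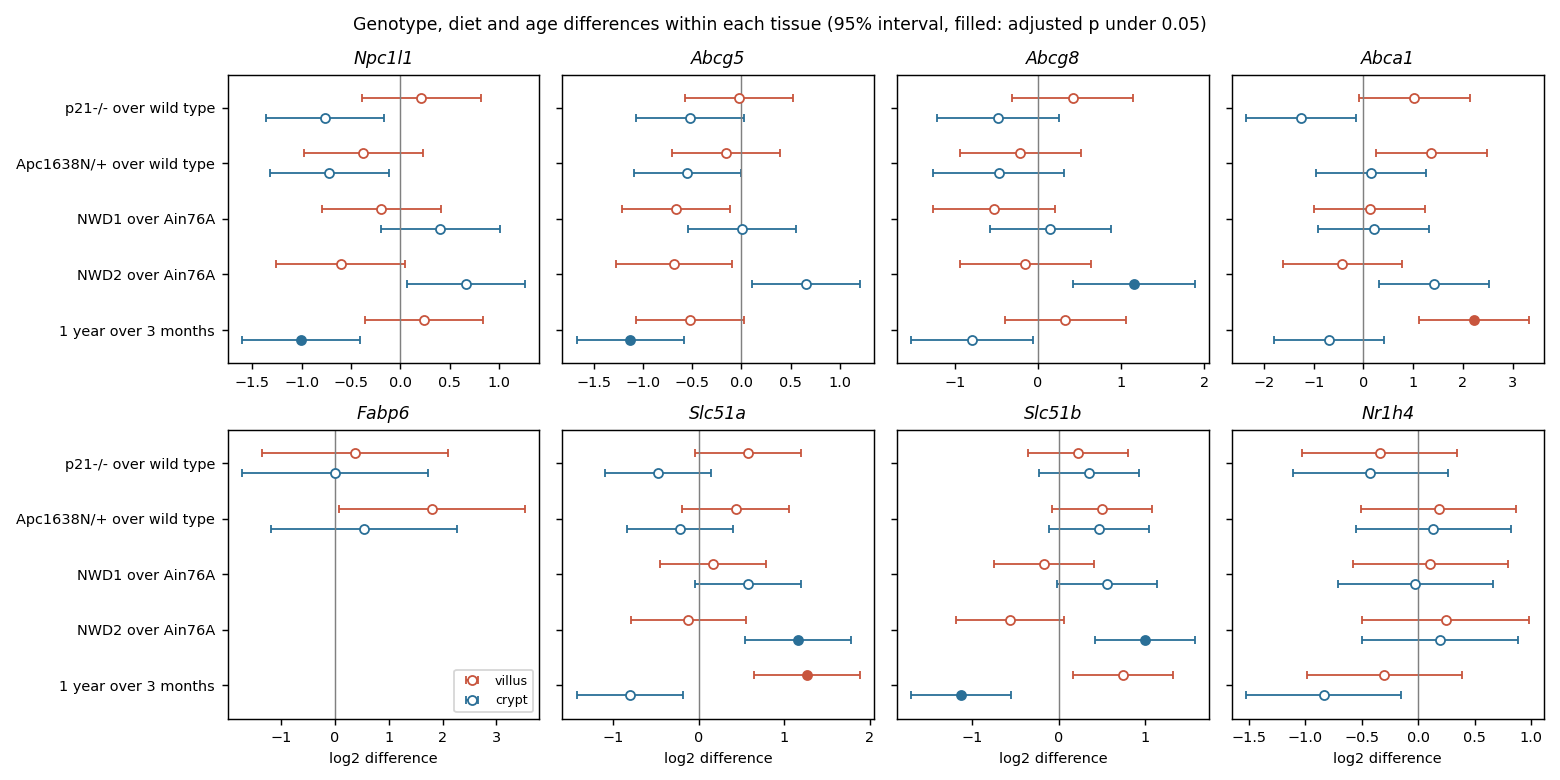
Log2 differences of the 8 members within villi and within crypts for genotype, diet and age, with 95% intervals; filled points had an adjusted p under 0.05. The called points are Slc51a, Slc51b and Abcg8 in NWD2 crypts and 5 of the differences between 1 year and 3 months; Fabp6 was not tested for diet and age.

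Wild type mice on Ain76A were measured at 1 year and at 3 months, and age cannot be told apart from the arm of the study in this comparison. In crypts 3 of 7 members tested were lower at 1 year (background 16.0%, with 6.67% lower), and in villi 2 of 7 were higher (16.2%, with 7.41% higher). Abcg5 stood at 11.93, 12.24, 11.86 and 12.13 in 1-year crypts, against 12.61, 13.52, 13.12 and 13.42 in 3-month crypts (-1.13 ± 0.27, adjusted p = 0.00501). The ages did not overlap for Abcg5. Slc51b was lower in 1-year crypts by 1.12 (SE 0.29, adjusted p = 0.00724) and Npc1l1 by 1.01 (SE 0.30, adjusted p = 0.0185). All 3 calls were lost without wild type crypt arrays 2 and 4, at -0.83, -0.63 and -0.53 (adjusted p = 0.205, 0.372 and 0.503). That setting keeps only wild type crypt arrays 1 and 3, which lowers the precision. Most calls over all probe sets were lost there too, from 1264 higher and 907 lower to 103 and 70 of 13432 tested. The call of Npc1l1 was also lost without either of these arrays or 1-year crypt array 2 (highest adjusted p 0.139) and after adjustment for the crypt-villus score (-0.72, adjusted p = 0.0633). In a fit of only the groups compared, Npc1l1 and Slc51b had adjusted p = 0.0545 and 0.0533. In villi, Abca1 was higher at 1 year by 2.23 ± 0.55 (adjusted p = 0.00527), with 11.48 as the lowest 1-year value and 10.86 as the highest 3-month value. Slc51a was higher in 1-year villi by 1.26 ± 0.31 (adjusted p = 0.00487; 0.0507 without 3-month villus array 3). The level of the spike-in controls moved too, at 12.5 to 12.8 on 1-year villus arrays, against 13.3 to 14.5 on 3-month villus arrays, and with it as a covariate Abca1 differed by 2.18 (adjusted p = 0.0543) and Slc51a by 1.14 (0.0736). With that covariate, calls in villi over all 12854 probe sets tested fell as well, from 952 higher and 1124 lower to 139 and 139. The spike-in levels of the ages did not overlap, so that fit cannot separate age from spike-in level. Slc51a in crypts was called lower at 1 year without 3-month crypt array 1 (-1.13, adjusted p = 0.00708). Markers of cell types moved as well. In crypts 2 of 7 villus enterocyte markers were lower at 1 year and 0 higher (median -0.78), with a summed level of 15.5 to 16.2 log2 units at 1 year, against 15.8 to 17.2 at 3 months and none blank on all arrays of either group, and 2 of 5 goblet markers were lower. The crypt-villus score was 2.92 to 4.36 in 1-year crypts, against 1.92 to 3.92 in 3-month crypts. In villi, all 7 lymphocyte markers were lower at 1 year (median -2.65), with a summed level of 14.2 to 15.1 log2 units at 1 year, against 16.2 to 17.1 at 3 months, and none of them blank on all arrays of either group. Of 5 enteroendocrine markers 3 were lower in 1-year villi, and in 1-year crypts 4 were higher. The part of these cells in the differences between the ages was not tested.

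Fabp6 also stood apart between the ages. It had a value on 2 of 4 Ain76A crypt arrays at 1 year, at 7.68 and 6.97, against 13.76 to 15.76 on all 4 at 3 months, and on 2 of 4 villus arrays at 1 year, at 9.42 and 7.19, against 10.66 to 11.64. With each blank set to the floor of its array, the crypts differed by -7.95 ± 0.94 (adjusted p = 1.77e-06) and the villi by -3.84 ± 0.94 (adjusted p = 0.00490), where the size depends on the floor. Across the series, 13 of 23 arrays of 1-year mice had a value, against all 24 arrays of 3-month mice. Fgf15 had a value on 1 of 23 arrays at 1 year, against 11 of 24 at 3 months.

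Both are genes of the ileum, so markers of the 2 ends of the small intestine are given beside them. The summed level of distal markers (5 of 6 with a probe set) was 13.0 to 13.8 log2 units in Ain76A crypts at 1 year, against 12.6 to 14.5 in wild type crypts at 3 months, and 13.7 to 15.25 in villi at 1 year, against 13.7 to 14.6. Among them, in crypts, Amn, which anchors the vitamin B12 receptor, was lower at 1 year (-1.17, adjusted p = 0.0174) and the hormone gene Gcg higher (1.27, adjusted p = 0.0335) of 4 tested. In villi the hormone gene Pyy was lower (-1.10, adjusted p = 0.0213) of 5 tested, and it was blank on every 1-year crypt array. The summed level of proximal markers (8 of 8) was 15.5 to 17.0 in Ain76A crypts at 1 year, against 16.4 to 17.1, and 17.1 to 17.6 in villi, against 17.1 to 17.4; of 7 tested in each tissue, the lactase gene Lct was lower in 1-year crypts (-1.47) and the hormone gene Ghrl in 1-year villi (-2.28). Distal and proximal sums overlapped between the ages in both tissues, and the part of the sampled region in the Fabp6 and Fgf15 values was not tested.

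**Figure D4:**
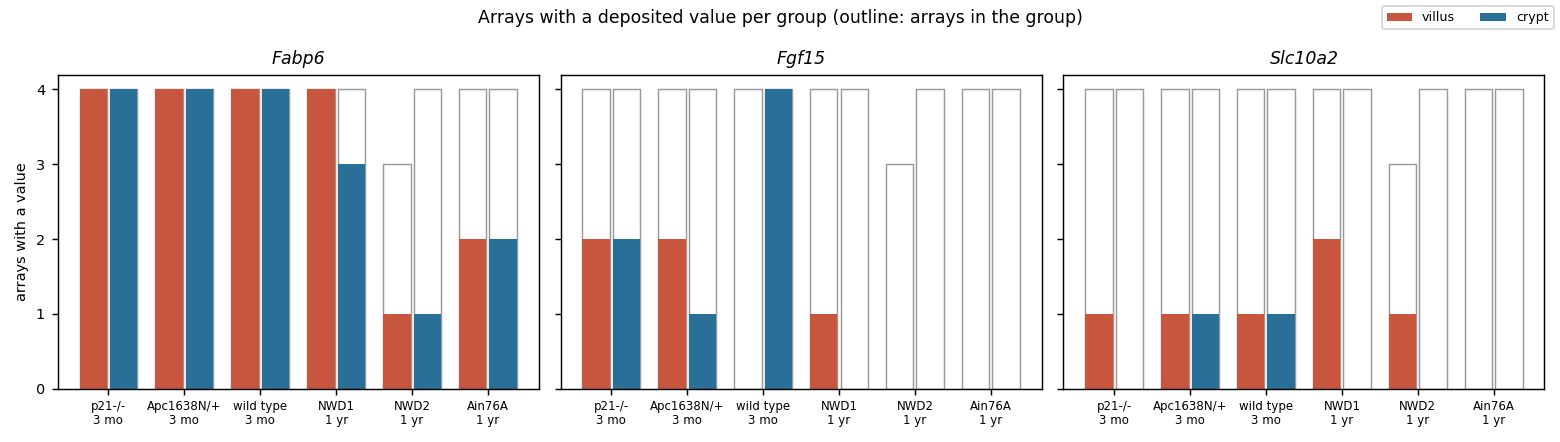
Number of arrays with a deposited value for Fabp6, Fgf15 and Slc10a2 in each group, with villus bars left of crypt bars and the outline at the number of arrays in the group. Fabp6 had a value on 13 of 23 arrays of 1-year mice and on all 24 arrays of 3-month mice.

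Whether the tissue axis itself differed was tested as the difference of 2 differences. For 1-year Ain76A less 3-month wild type mice, 4 of 7 members had a larger villus-over-crypt difference at 1 year (background 10.8%, with 5.20% higher): Abca1 by 2.92 ± 0.78 (adjusted p = 0.0153), Slc51a by 2.07 ± 0.43 (0.00414), Slc51b by 1.87 ± 0.40 (0.00491) and Npc1l1 by 1.24 ± 0.42 (0.0483). Abca1, Slc51a and Slc51b were called whichever 1 of the 16 arrays was left out, and Npc1l1 in 3 of 16 cases (highest adjusted p 0.143). Without wild type crypt arrays 2 and 4 together, a setting chosen after seeing the data, 0 of 7 were called, at 2.05 for Abca1 (adjusted p = 0.158), 1.70 for Slc51a (0.0512), 1.38 for Slc51b (0.0680) and 0.77 for Npc1l1 (0.341). Over all probe sets, calls fell in that setting too, from 637 higher and 687 lower to 87 and 148 of 12125 tested. For p21-/- less wild type 0 of 8 members were called (background 1.50%, with 3 at an unadjusted p under 0.05), and for Apc1638N/+ less wild type 0 of 8 (0%, with 0). For NWD1 less Ain76A 0 of 8 were called (0%, with 0), and for NWD2 less Ain76A 0 of 8 (0.175%, with 6). In the NWD2 comparison Slc51b had -1.55 ± 0.42 (adjusted p = 0.0713) and Abcg5 -1.34 ± 0.40 (adjusted p = 0.0843). With the replicate block 5 of 8 had a smaller axis in NWD2 mice, Slc51b (-1.48, adjusted p = 0.00380), Slc51a (-1.23, 0.00412), Abca1 (-2.07, 0.0241), Abcg5 (-1.38, 0.0318) and Npc1l1 (-1.27, 0.0491). Calls over all 13108 probe sets also grew, to 1286 higher and 1272 lower. Markers of the tissues moved as well. Without a block, the median of this difference was -1.61 over 7 villus enterocyte markers, 1.61 over 5 crypt markers and -1.30 over the members. The part of the marker shift in the member values was not tested.

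How the members varied from array to array was described by Pearson's r of deviations from the group mean, on arrays that share scaling and hybridisation. Abcg5 and Abcg8 deviated together in both tissues, at r = 0.71 on 23 villus arrays and 0.69 on 23 crypt arrays. Npc1l1 and Abcg8 did so too, at 0.76 and 0.62. Slc51a and Slc51b had r = 0.21 on villus arrays and 0.62 on crypt arrays, and Abcg5 with Slc51a had -0.46 and 0.64. Nr1h4 went with Slc51b on villus arrays (0.70) and less so on crypt arrays (0.15). On crypt arrays the 6 transport genes were thus all positively related, at 0.46 to 0.81. Deviations of the crypt-villus score over all arrays with a value related to Npc1l1 at r = -0.57, to Abcg8 at -0.54 and to Abcg5 at -0.46. They related to the bile acid exporter Slc51b at -0.40, to Abca1 at -0.38 and to Slc51a at -0.20. For Nr1h4 r was 0.04 and for Fabp6 0.03. Arrays with more villus-like markers in their group thus tended to have higher levels of the sterol transporters and of Slc51b.

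**Figure D5:**
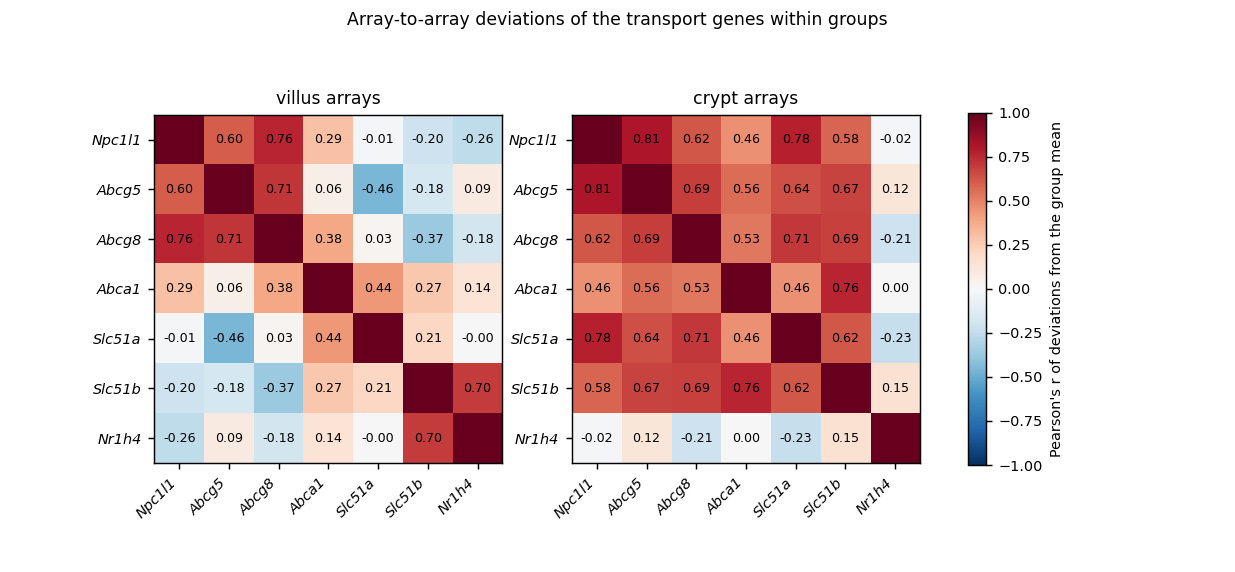
Pearson's r between members of their deviations from the group mean, on villus arrays (left) and crypt arrays (right), for the 7 members measured in every group. On crypt arrays Npc1l1, Abcg5, Abcg8, Abca1, Slc51a and Slc51b form 1 block of r from 0.46 to 0.81, and on villus arrays the block is limited to Npc1l1, Abcg5 and Abcg8.

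Over all genes measured on at least 40 arrays, the deviations most like those of Abcg5 were those of Naip5 (r = 0.74), Npc1l1 (0.71) and Abcg8 (0.70). For Abcg8 they were Cyp27a1 (0.75), which oxidises cholesterol, Myo1a (0.74), a brush border myosin, and Cubn (0.72), an endocytic receptor of enterocytes. Abca1 was most like Flvcr1 (0.89), Slc5a4b (0.85) and Cyp4v3 (0.85), and Npc1l1 most like Ezr (0.81), which encodes the microvillus protein ezrin. Slc51a was most like Ilvbl (0.84) and Mogat2 (0.81), an enzyme of fat absorption, Slc51b most like Gda (0.82), and Nr1h4 most like Pgk1 (0.74). Over the 12 group means, the closest genes were Nlrp9b for Abcg5 (0.99), Tor1aip2 for Abcg8 (0.99), Elmod2 for Abca1 (0.97) and Cdhr2, a brush border cadherin, for Npc1l1 (0.98). The closest to Slc51a was Tmed4 (0.94), to Slc51b Mall (0.95) and to Nr1h4 Camk1d (0.94).

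Other genes of the sterol pathway were taken from a list of 22, of which 17 had a value on at least 1 array. In 1-year Ain76A mice 12 of 16 tested were higher and 1 lower in villi, where 56.8% of all probe sets tested were called (median 0.95, against 0.09 over all probe sets). In wild type mice of 3 months 5 of 15 were higher and 2 lower, near the background of 48.3% (0.56, against 0.14). The highest in Ain76A villi were Apob, the protein of chylomicrons, by 3.17, Lipa, the lysosomal lipase, by 2.89 and Npc1, the lysosomal cholesterol exporter, by 2.26. Npc2, the partner of Npc1 in the lysosome, was lower in villi by 1.14 in Ain76A and by 1.02 in wild type mice. In NWD2 crypts 6 of 16 were higher than on Ain76A and 0 lower (background 8.83%, median 0.38, against -0.07): Apob by 1.71, Lipa by 1.59, Mttp, which loads fat onto Apob, by 1.35, Apoa1 by 1.30, Lpcat3 by 1.28 and Nr1h3, an LXR gene, by 0.78. In 1-year crypts Apob, Apoa1 and Anxa2 were lower than at 3 months (-1.78, -0.92 and -0.54), 3 of 15 tested (background 16.0%).

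Of 20 other genes of bile acid handling, 16 had a value on at least 1 array. In 1-year Ain76A mice 8 of 14 tested were higher and 2 lower in villi (background 56.8%; median 1.01, against 0.09). In wild type mice of 3 months 4 of 13 were higher and 1 lower, below the background of 48.3% (0.24, against 0.14). Abcc2, an apical export pump, was higher in villi by 2.83 in Ain76A and by 2.15 in wild type mice, and Cyp3a11, which hydroxylates bile acids, by 2.66 in Ain76A and by 2.09 in Apc1638N/+ mice. Slco2b1, an organic anion carrier, was lower in villi by 1.86 in Ain76A and by 2.58 in wild type mice. Nr5a2, the nuclear receptor LRH-1, was lower in p21-/-, Apc1638N/+, NWD1 and Ain76A villi (-1.83, -1.91, -1.10 and -1.76). In NWD2 crypts 4 of 14 were higher than on Ain76A and 0 lower (background 8.83%; median 0.67, against -0.07): Cyp3a11 by 1.62, the fatty acid transporters Slc27a4 by 1.48 and Slc27a2 by 1.14, and Abcb1a by 1.44. The crypt-villus scores given above moved with these NWD2 calls as well. In the 4 genotype comparisons 0 genes of either list were called.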

How the data were processed

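Total RNA of small intestinal crypts and villi was hybridised to 47 single-colour oligonucleotide arrays with 45101 probe sets. The deposited values are on a log2 scale, per the values themselves, and GCOS is named in the submitters' processing notes, with a version not given in the sources used here. Why 55.2% of the deposited log2 values are blank is also not given there. Samples were grouped from the labels by tissue and genotype or diet. After 64 control probe sets were left out, the arrays' trimmed means differed by a ratio of 1.46, above the limit of 1.2, so the values were quantile normalized on the 8350 probe sets without a blank, with the others interpolated. A probe set was kept if it lay above its array's median on at least 3 arrays, which left 14937. limma (version 3.58.1, in R 4.3.3) fitted 1 model over the 12 groups, with eBayes and a trend, and p-values were adjusted by Benjamini-Hochberg within each of 21 comparisons. The fitting code was tested on simulated data.

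The members and lists were chosen with earlier results of these data known. Named in the text are all members, up to 6 called genes per direction of the sterol and bile acid lists, and the 3 most alike genes per measure or fewer. Of the array's probe sets 34945 had 1 gene symbol, 932 several and 9160 none in the platform table. Same-numbered villus and crypt arrays correlated in their deviations from the group means at 0.298 to 0.489 in NWD2 mice (3 pairs) and at 0.113 to 0.296 in 1-year Ain76A mice (4 pairs). Every pair lay above 0.1 there and in no other comparison, so the numbers were taken to pair these arrays. That pairing comes from the data, since the labels give the numbers alone. NWD2 villus array 2 correlated best with crypt array 3 rather than 2. NWD2 villus arrays 1 and 3 and every 1-year Ain76A villus array correlated best with the crypt array of their number. Alternatives covered the scaling, the filter, the fit, blanks, covariates and each array left out. Arrays carry no read depth, and their number limits the precision.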

Additional observations from a re-analysis of the deposited data

Results flagged for a closer look

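Single arrays stood apart from the other arrays of their group for 7 of 93 combinations of probe set and group tested by Dixon's criterion, which chance alone passes in about 1 of 20. Normalised log2 levels were 9.90 for Abca1 (1421840_at) in Apc1638N/+ villus array 3, against 11.88 to 12.09 in the others, and 13.92 for Npc1l1 in p21-/- villus array 3, against 15.18 to 15.28. Slc51a stood at 10.79 in 1-year Ain76A crypt array 1, against 11.53 to 11.60. Slc51b stood at 9.61 in NWD1 crypt array 4, against 10.70 to 10.73, and at 10.16 in NWD2 crypt array 1, against 11.09 to 11.14. Nr1h4 stood at 8.49 in 1-year Ain76A villus array 1, against 9.33 to 9.48, and at 9.68 in NWD1 villus array 3, against 9.07 to 9.17.

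The villus-over-crypt difference was larger in 1-year Ain76A than in 3-month wild type mice by 2.92 for Abca1, 2.07 for Slc51a, 1.87 for Slc51b and 1.24 for Npc1l1 in the test of that difference, and age and arm cannot be told apart in it.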

How the results depend on the processing

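Villus over crypt in NWD2 mice, with 2 member probe sets called, gave 1 on the deposited scaling, in a fit of only the groups compared and with 1 probe set per gene, and 8 with array weights and with the replicate block. All probe sets gave 742 higher and 1614 lower on the deposited scaling, 1449 and 1352 in that fit, and 2597 and 2138 with the block. Leaving out single arrays gave 0 to 6 members called in NWD2 mice, 5 to 6 in wild type and p21-/-, 4 to 6 in Apc1638N/+, 8 to 9 in NWD1 and 7 in Ain76A mice. The genotype comparisons, with 0 called, gave 0 to 1 with single arrays left out (1 without wild type crypt array 1). The diet comparisons, with 3 called, gave 5 on the deposited scaling, 6 in a fit of only the groups compared and with the replicate block, 8 with array weights, 0 with the crypt-villus score and 0 to 5 with single arrays left out. For NWD2 over Ain76A crypts, all probe sets gave 1064 higher and 198 lower on the deposited scaling and 1629 and 2211 in that fit. They gave 1592 and 2060 with the block and 30 and 11 with the score. The age comparisons, with 5 called, gave 9 with blanks set to a floor, 3 with the spike-in level, 2 without wild type crypt arrays 2 and 4, and 4 to 7 with single arrays left out. The calls added by the floor were Fabp6 in both tissues and Abca1 (1421839_at and 1450392_at) in villi, which had too few values for a test otherwise. At the floor, all probe sets gave 1106 higher and 777 lower in crypts and 1278 and 1068 in villi. With the spike-in level, all probe sets gave 139 higher and 139 lower in villi (952 and 1124 otherwise) and 1420 and 1022 in crypts (1264 and 907). Without the 2 arrays they gave 103 and 70 in crypts. The axis differences, with 4 called, gave 7 in a fit of only the groups compared, 11 with array weights, 9 with the replicate block, 0 without wild type crypt arrays 2 and 4, and 3 to 6 with single arrays left out. For the NWD2 less Ain76A axis, all probe sets gave 884 higher and 939 lower in that fit and 1286 and 1272 with the block. For the 1-year Ain76A less wild type axis they gave 87 and 148 without crypt arrays 2 and 4 (637 and 687 otherwise). Leaving out those 2 crypt arrays was chosen after seeing the data. Calls over all probe sets moved with the array weights: 5278 were higher and 3772 lower in NWD2 villi over crypts (920 and 1189 otherwise), 3337 and 4299 in NWD2 over Ain76A crypts (774 and 448), and 2382 and 2144 for the NWD2 less Ain76A axis (4 and 19). The causes were not tested. Same-numbered arrays share only a number in the genotype, diet and age comparisons. Blanks limit Fabp6, Fgf15 and Slc10a2.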
